A study of Homo sapiens with 9 samples.

Results

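The genes of serine, folate and one-carbon metabolism were examined in human spinal cord organoids (SCOs) exposed to valproic acid (VPA), an anticonvulsant that inhibits histone deacetylases, with or without Rapamycin, an inhibitor of the kinase mTOR. The set holds 34 genes listed by symbol for their place in the pathway, out of 31589 genes listed in at least 1 of the 3 deposited tables. Earlier results of these data were known when the 34 genes were chosen. Of these, 32 had a row, while FOLR1 and FOLR2 were not analysed here. Filtering of low counts left 28 members that could be tested in all 3 comparisons. SLC25A32 and BHMT2 had rows and passed the filter in none, MTHFS passed it only for VPA against vehicle, and AMT passed it in the comparisons with vehicle.

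All 9 libraries came from whole SCOs of the WTC induced pluripotent stem cell line, which is from a single donor, and the labels give their genotype as WT. The 3 conditions were vehicle (titled FGF in the labels), VPA and VPA+Rapamycin, with 3 libraries each and an exposure of 96 h in the labels, whereas the text of the study gives another duration for a VPA exposure and describes VPA as added together with FGF. According to that text the SCOs were grown from 3 clones edited at SOX10 to carry a reporter, some of them with a further lesion of the other SOX10 allele, and several SCOs of a clone were pooled for RNA. The labels do not tie a library to a clone, there was no library of Rapamycin alone, and p-values therefore measure only the spread between such pools of a single line.

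Cells build serine from a glycolytic intermediate through PHGDH, PSAT1 and PSPH. Serine hydroxymethyltransferases then split serine into glycine and a carbon unit carried on folate, and parallel enzymes in mitochondria and cytosol move that unit between oxidation states for the synthesis of thymidylate and purines or, through the methionine cycle, for methylation. Folate supply is known for its part in neural tube closure, VPA is known as a teratogen of the neural tube, and mTOR signalling through the transcription factor ATF4 is known to promote transcription of the serine and mitochondrial folate enzymes.

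Counts on genes ranged from 15290436 to 17417478 per library, so that 3 counts, taken as the floor, correspond to 0.172 to 0.196 CPM. Vehicle replicate 3 was the least like the other vehicle libraries, with a chi-square per gene of 39.1 against replicate 1 and 17.9 against replicate 2, whereas replicates 1 and 2 had 13.5, pairs of VPA libraries 4.75 to 7.56 and pairs of VPA+Rapamycin libraries 6.55 to 14.4, so that it differed most from replicate 1. It also held the highest summed level of 7 neuronal markers (36035 normalized counts, against 21253 and 28258). Counts of members called against vehicle are therefore given with and without it. Pathway lists and markers are given with it, and without single libraries only as ranges of counts over all listed genes. The posterior HOX genes that mark spinal cord summed to 7005 to 16436 normalized counts in each library and neural progenitor markers to 50822 to 62391, whereas markers of pluripotent cells summed to at most 18.77 and those of endoderm to at most 20.82. In bulk RNA, fewer cells of a type and less RNA per cell cannot be told apart.

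With VPA, 10 of the 30 members tested were higher than in vehicle and 1 was lower (quasi-likelihood test of edgeR with p-values adjusted over all tested genes, threshold 0.05), beside 16.4% of all tested genes called higher and 15.7% called lower, or 32.1% in either direction. The median log2 fold change of the tested members was 0.30, and that of all tested genes was 0.00. The members called higher were PHGDH, PSPH, SHMT2, ALDH1L2, MTHFD1, SLC46A1, GGH, GLDC, DLD and AHCY, and MAT2A was the member called lower. DESeq2 called SHMT1 higher in place of PSPH. With vehicle replicate 3 left out, 11 members were called higher and 1 lower, none of the calls being lost and GCSH being added. Without vehicle replicate 1, DLD and SLC46A1 were lost and CBS, FPGS, GART, SHMT1, SLC19A1 and TYMS were added. Only 5 were called higher when vehicle replicate 2 or any of the VPA libraries was left out, and in each of these cases PHGDH, PSPH, SLC46A1, GLDC and DLD were the members lost.

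With VPA+Rapamycin, 7 of the 28 members tested were lower than with VPA, beside 3.73% of all tested genes, and 0 were higher, beside 3.01% of all tested genes. In either direction 6.74% of all tested genes were called. At an unadjusted p under 0.05 the numbers were 12 lower and 1 higher, and DESeq2 called 1 member higher, MAT2A, and PSAT1 lower beside the 7. The members called lower were PHGDH, SHMT2, MTHFD2, MTHFD1L, ALDH1L2, MTHFD1 and AHCY. The median log2 fold change of the tested members was -0.19, against 0.00 over all tested genes. All 7 calls rest on the spread within the VPA and VPA+Rapamycin libraries. In a single fit of all 9 libraries, which shares its spread with the vehicle libraries, 0 members were called and their adjusted p ranged from 0.0657 to 0.295, with 113 genes called in all in place of 1168.

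VPA+Rapamycin was also set against vehicle. Here 4 of 29 members were higher (MTHFD1, SLC46A1, GGH and AHCY), beside 9.81% of all tested genes, and 1 was lower (MTHFD1L), beside 9.22%, with 19.0% of all tested genes called in either direction. The median was 0.15 over the tested members and 0.00 over all tested genes. Without vehicle replicate 3, 5 members were higher and 1 lower, ALDH1L2 being added. Without vehicle replicate 1 there were 8 higher and 1 lower, with CBS, PHGDH, SHMT2 and SLC19A1 added, while without vehicle replicate 2 or any VPA+Rapamycin library between 1 and 3 members stayed called, GGH in every case. The 3 comparisons share libraries, so their values are given side by side for each member and are not independent of one another.

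**Figure D1:**
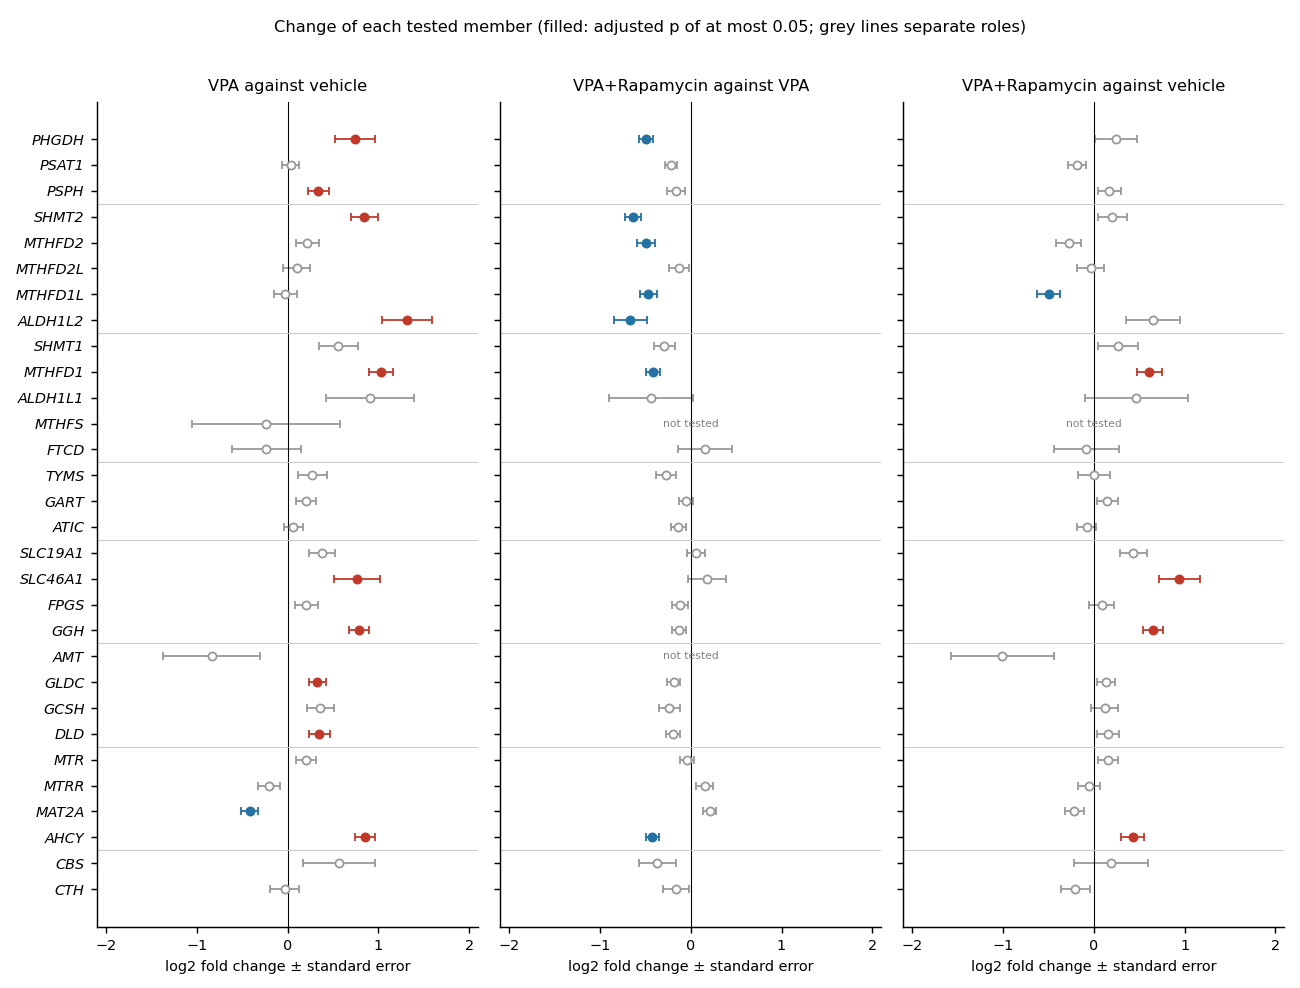
Log2 fold change with its standard error (horizontal axis) for each of the 30 members tested in at least 1 comparison, with 1 panel per comparison and grey lines between roles. Filled red points were called higher and filled blue points lower at an adjusted p of at most 0.05, and open grey points were not called, with 10 red points and 1 blue point for VPA against vehicle and 7 blue points for VPA+Rapamycin against VPA.

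The serine synthesis enzymes had 2 of 3 members higher with VPA and 1 of 3 lower with added Rapamycin. Of all tested genes, 16.4% were higher with VPA and 3.73% lower with added Rapamycin. PHGDH (chr1:119648411-119744226, GRCh38 as for all positions given), which catalyses the first step, stood at 2417, 1595 and 1074 normalized counts in the vehicle libraries, at 2877, 2779 and 2902 with VPA and at 2063, 2218 and 1783 with VPA+Rapamycin. All VPA libraries lay above all others, and the vehicle libraries spread most. PHGDH rose with VPA by 0.74 ± 0.22 (SE) on the log2 scale (edgeR adjusted p = 0.0228) and fell with added Rapamycin by 0.49 (SE 0.08, adjusted p = 0.00125), leaving a difference of 0.25 ± 0.23 between VPA+Rapamycin and vehicle that did not pass the test (adjusted p = 0.487). PSPH (chr7:56011051-56051604), the phosphatase of the last step, stood at 500, 464 and 500 normalized counts in vehicle, 642, 602 and 617 with VPA and 518, 602 and 539 with VPA+Rapamycin. It rose with VPA by 0.34 ± 0.11 (edgeR adjusted p = 0.0439), a call that 8 of 14 alternatives lost, while its log2 fold change of -0.16 with added Rapamycin did not pass (adjusted p = 0.352). PSAT1, the aminotransferase between them, was the most abundant of the set per length, with a mean of 1884 normalized counts per kb in vehicle. It was not called in any comparison by edgeR (log2 fold changes of 0.03, -0.22 and -0.19 in the order given above), and DESeq2 called it lower with added Rapamycin.

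**Figure D2:**
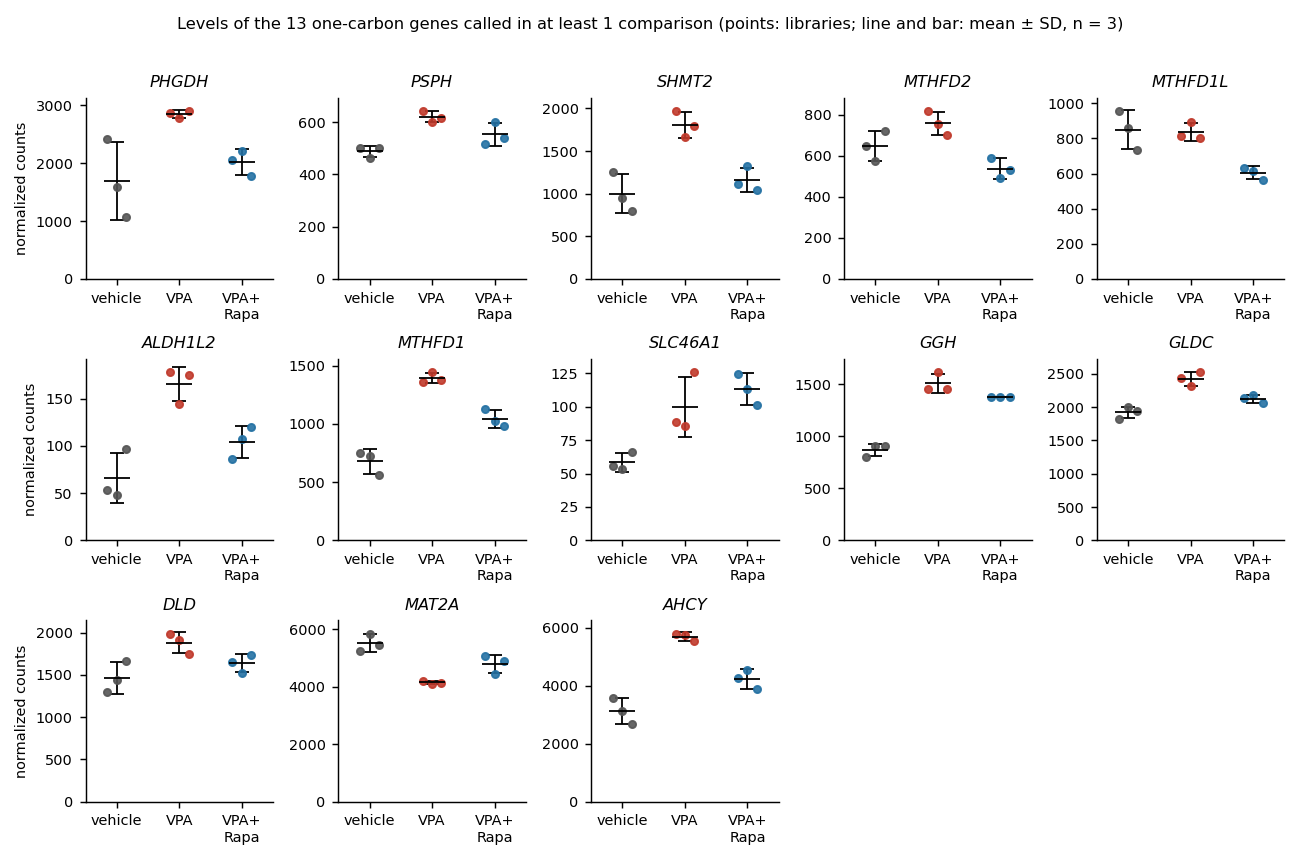
Normalized counts (vertical axis, from 0) of the 13 members called in at least 1 comparison, by condition. Points are single libraries, and the line and bar give the mean and SD (n = 3). The VPA libraries of SHMT2, MTHFD1 and AHCY, at 1660 or more, 1359 or more and 5521 or more, lie above all libraries of the other conditions, and those of MAT2A, at most 4212, lie below them.

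In the mitochondrial folate arm, 2 of 5 tested members were higher with VPA, beside 16.4% of all tested genes. With added Rapamycin 4 of 5 were lower, beside 3.73% of all tested genes. This was the largest share of any role in that comparison, and each role holds few genes. SHMT2 (chr12:57229327-57234935), the mitochondrial serine hydroxymethyltransferase, stood at 1248, 952 and 799 normalized counts in vehicle, 1968, 1660 and 1799 with VPA and 1111, 1322 and 1045 with VPA+Rapamycin. The VPA libraries did not overlap with either other group, whereas vehicle and VPA+Rapamycin did overlap. SHMT2 rose by 0.85 ± 0.15 with VPA (edgeR adjusted p = 0.00189) and fell by 0.64 on the log2 scale with added Rapamycin (SE 0.09, adjusted p = 0.000407). The rise was called under all 14 alternatives, and VPA+Rapamycin against vehicle gave 0.21 ± 0.16 (adjusted p = 0.409).

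ALDH1L2 (chr12:105019784-105084577), the mitochondrial formyl-tetrahydrofolate dehydrogenase, had low levels throughout. It was at 53.8, 47.9 and 96.1 normalized counts in vehicle, 178, 145 and 174 with VPA and 86.4, 107 and 120 with VPA+Rapamycin. Again the VPA libraries lay above all others, and vehicle replicate 3 fell within the range of VPA+Rapamycin. It had the largest change of any member, a rise of 1.32 ± 0.27 on the log2 scale or 2.49-fold with VPA (edgeR adjusted p = 0.00426), called under all 14 alternatives. Its fall of 0.67 on the log2 scale with added Rapamycin (SE 0.18, adjusted p = 0.0371) was lost when any VPA library, or VPA+Rapamycin replicate 1 or 2, was left out. The log2 difference from vehicle with VPA+Rapamycin, 0.65 ± 0.29, did not pass (adjusted p = 0.148) but was 1.03 and did pass without vehicle replicate 3.

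MTHFD2 and MTHFD1L followed another pattern, with no call for VPA and lower levels with added Rapamycin. MTHFD2 (chr2:74198562-74217565), the mitochondrial methylene-tetrahydrofolate dehydrogenase, stood at 646, 574 and 722 normalized counts in vehicle, 818, 753 and 703 with VPA and 591, 490 and 531 with VPA+Rapamycin. Only VPA and VPA+Rapamycin did not overlap. Its fold change with VPA was 0.22 ± 0.13 on the log2 scale (edgeR adjusted p = 0.217), it fell with added Rapamycin by 0.49 (SE 0.10, adjusted p = 0.00614), and VPA+Rapamycin against vehicle gave -0.28 (adjusted p = 0.174). MTHFD1L (chr6:150865549-151101887), which releases formate in mitochondria, stood at 956, 857 and 733 normalized counts in vehicle, 815, 896 and 804 with VPA and 634, 616 and 564 with VPA+Rapamycin. Every VPA+Rapamycin library was below every other. The difference between VPA and vehicle was -0.03 ± 0.13 and changed sign between settings, whereas MTHFD1L fell with added Rapamycin by 0.47 on the log2 scale (SE 0.09, edgeR adjusted p = 0.00475) and was lower than in vehicle by -0.50 (SE 0.13, adjusted p = 0.0224), the last call being lost without vehicle replicate 2 or any VPA+Rapamycin library. MTHFD2L, the other mitochondrial dehydrogenase of this step, lay between 427 and 576 normalized counts in all libraries and was not called. SLC25A32, the mitochondrial folate carrier, was counted at 5.44 to 12.8 normalized counts, and 80.8% of its exon bases are shared with other annotated genes, to which reads may have been assigned, which was not tested.

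In the cytosolic arm, 1 of 5 tested members was higher with VPA and 1 of 4 was lower with added Rapamycin, MTHFD1 in both cases. MTHFD1 (chr14:64388031-64463457), a single protein with the activities that interconvert cytosolic folates, stood at 752, 724 and 558 normalized counts in vehicle, 1359, 1441 and 1379 with VPA and 1127, 1026 and 978 with VPA+Rapamycin. The 3 conditions did not overlap at all. MTHFD1 rose 2.04-fold with VPA (log2 1.03 ± 0.13, edgeR adjusted p = 0.000231), fell with added Rapamycin by 0.41 on the log2 scale (SE 0.08, adjusted p = 0.00373) and stayed above vehicle by 0.61 ± 0.13 (adjusted p = 0.0117), this last call being lost without VPA+Rapamycin replicate 1. SHMT1, the cytosolic serine hydroxymethyltransferase, stood at 500, 468 and 256 normalized counts in vehicle, 516, 653 and 645 with VPA and 494, 543 and 441 with VPA+Rapamycin. Its log2 fold change of 0.56 ± 0.21 with VPA did not pass (edgeR adjusted p = 0.0674). DESeq2 did call SHMT1 higher with VPA, as did the fits with no filter, with the replicate block and with all 9 libraries. So did the fit without vehicle replicate 1. The remaining members of the arm were sparse, with 5.44 to 24.5 normalized counts for ALDH1L1, 1.92 to 17.3 for MTHFS and 30.6 to 77.2 for FTCD, and none was called.

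Paired enzymes were set against each other per kb. MTHFD2 and MTHFD2L are both mitochondrial, so their share does not compare the arms. MTHFD1L made up 70.3%, 68.8% and 71.0% of the summed MTHFD1L and MTHFD1 level in the vehicle libraries, 52.8%, 53.7% and 52.1% with VPA and 51.2%, 52.9% and 51.9% with VPA+Rapamycin. The share was thus lower in every VPA library than in every vehicle library, while both treated conditions overlapped (70.1% ± 1.12, 52.9% ± 0.793 and 52.0% ± 0.833, SD, n = 3). The exact two-sided permutation test gave p = 0.1 for VPA against vehicle, the smallest that 3 against 3 libraries allow, and p = 0.3 for VPA+Rapamycin against VPA. SHMT2 made up 75.4% to 82.5% of the summed SHMT2 and SHMT1 level in vehicle, 79.3% to 85.2% with VPA and 77.2% to 78.5% with VPA+Rapamycin, and MTHFD2 made up 71.4% to 75.3%, 72.8% to 75.3% and 67.0% to 72.8% of MTHFD2 and MTHFD2L. Vehicle and VPA overlapped in both of these shares (exact p = 0.4 and 0.3), whereas VPA and VPA+Rapamycin did not overlap in either (exact p = 0.1 for both, again the smallest possible). Their ranges nearly touched, with a lowest VPA share of 79.27% beside a highest VPA+Rapamycin share of 78.55% for SHMT2. For MTHFD2 these were 72.82% and 72.78%. ALDH1L2 made up 83.9% to 95.7% of ALDH1L2 and ALDH1L1 over all libraries.

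**Figure D3:**
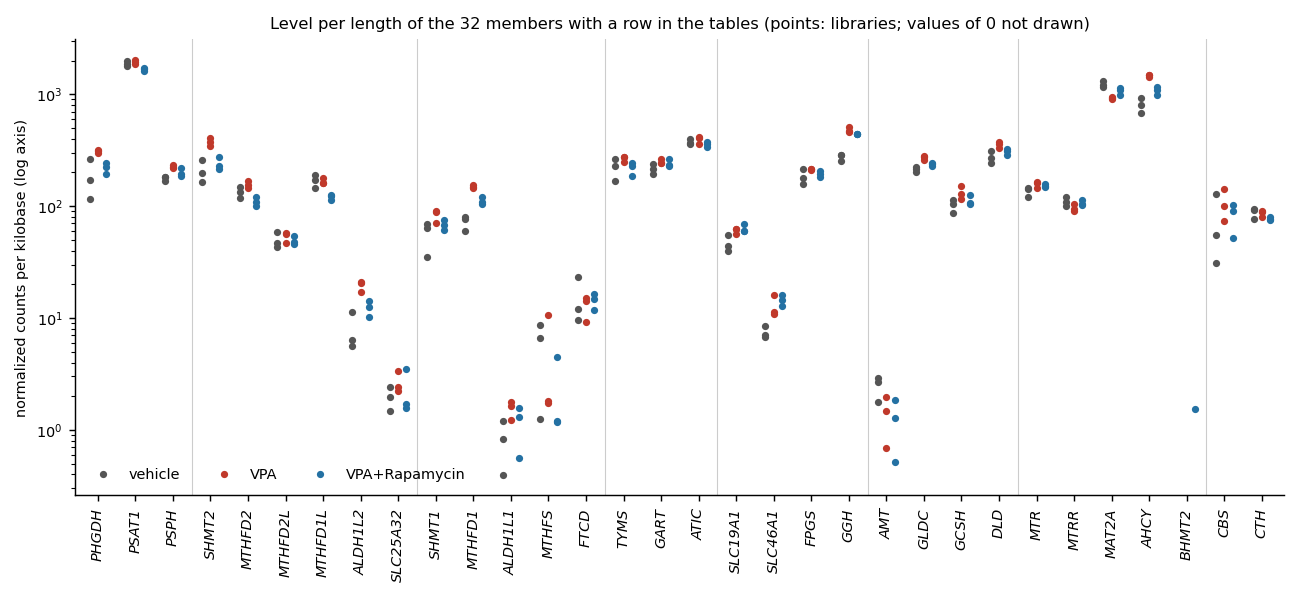
Normalized counts per kb of gene length (vertical log axis) for the 32 members with a row, ordered by role, with 1 point per library in grey for vehicle, red for VPA and blue for VPA+Rapamycin. PSAT1, MAT2A and AHCY lie highest, with vehicle means of 1884, 1230 and 802, and AMT, ALDH1L1, SLC25A32 and BHMT2 lie lowest, with means of at most 2.67 in each condition.

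The MTHFD1 and MTHFD1L promoters, whose genes differed in their change with VPA and both fell with added Rapamycin, were searched for 2 short motifs. These were TGATGNAA, the C/EBP-ATF element that ATF4 is known to bind, on both strands, and CACGTG, an E-box that reads the same on both strands. The promoters were 300 bases each, from 250 before to 50 after a start site, taken from RefSeq (GRCh38.p14) for 26 of the members with 44 promoters in all. The element TGATGNAA was present in 3.62% of all 35116 promoters. Among members it was present in 3 of the 44, all of MTHFD1L, where it lies 24 bases after a start site. Members outside the 26 were not searched. CACGTG was present in 7.26% of all promoters and in 7 of the 44, which belong to ATIC, FPGS, MTHFD1, MTHFD1L and SLC19A1. The matches in MTHFD1 and MTHFD1L are shown 5′ to 3′ on the strand of the gene, with the motif in capitals. A match is a description of these letters and was not measured as a binding site.
MTHFD1 E-box, chr14:64388327-64388354, plus strand: cagtccctaagCACGTGggttgggttgt
MTHFD1L E-box, chr6:150866321-150866348, plus strand: acgcccggctcCACGTGcgcagccggcc
MTHFD1L C/EBP-ATF element, chr6:150866346-150866375, plus strand: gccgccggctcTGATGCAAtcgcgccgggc

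None of the 3 members that use folate carbon for nucleotides was called in any comparison by edgeR or DESeq2, and TYMS with added Rapamycin was the single case with an unadjusted p under 0.05. Of all tested genes, edgeR called 32.1% with VPA, 6.74% with added Rapamycin and 19.0% for VPA+Rapamycin against vehicle. TYMS, the thymidylate synthase, stood at 647, 561 and 411 normalized counts in vehicle, 612, 676 and 680 with VPA and 603, 568 and 455 with VPA+Rapamycin. Vehicle overlapped with both treated conditions, and the log2 fold changes were 0.27 ± 0.16, -0.27 ± 0.11 and 0.00 ± 0.18 (edgeR adjusted p = 0.211, 0.152 and 0.996). ENOSF1 on the other strand covers 39.1% of its exon bases, and its mean count was 933, beside 581 for TYMS. GART, with activities for several steps of purine synthesis, stood at 1860, 1660 and 1518 normalized counts in vehicle, 1903, 2061 and 1874 with VPA and 2045, 1761 and 1805 with VPA+Rapamycin, with log2 fold changes of 0.20 ± 0.11, -0.05 ± 0.08 and 0.15 ± 0.12. ATIC, of the last purine steps, lay between 1335 and 1646 in all libraries.

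Among genes of folate uptake and retention, 2 of 4 tested members were higher with VPA and the same 2 were higher with VPA+Rapamycin than in vehicle, and 0 of 4 were called for added Rapamycin. Of all tested genes, 16.4% were higher with VPA, 9.81% higher with VPA+Rapamycin than in vehicle, and 6.74% called either way for added Rapamycin. At an unadjusted p under 0.05 none of the 4 passed in that last comparison, and DESeq2 also called none. GGH (chr8:63015079-63039171), the hydrolase that trims the glutamate tail of folates, stood at 800, 905 and 902 normalized counts in vehicle, 1455, 1611 and 1456 with VPA and 1374, 1378 and 1372 with VPA+Rapamycin. Both treated conditions lay far above vehicle and close to each other. GGH rose by 0.78 ± 0.11 with VPA (edgeR adjusted p = 0.000441) and was above vehicle by 0.65 ± 0.11 with VPA+Rapamycin (adjusted p = 0.00291), both called under all 14 alternatives, and its difference of -0.13 ± 0.07 with added Rapamycin did not pass (adjusted p = 0.333).

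SLC46A1 (chr17:28394756-28407197), the proton-coupled folate transporter, stood at 55.7, 53.3 and 66.4 normalized counts in vehicle, 88.8, 85.6 and 126 with VPA and 125, 113 and 101 with VPA+Rapamycin. All treated libraries were above all vehicle libraries. It rose by 0.76 ± 0.25 with VPA (edgeR adjusted p = 0.0384) and by 0.94 ± 0.22 with VPA+Rapamycin against vehicle (adjusted p = 0.0164), and gave 0.18 ± 0.21 for added Rapamycin (adjusted p = 0.673). The first call was lost without vehicle replicate 1 or 2 or any VPA library, and the second without vehicle replicate 2 or VPA+Rapamycin replicate 1 or 2. SARM1 on the other strand covers 56.4% of its exon bases with a mean count of 366, beside 91.2 for SLC46A1, so reads of both genes cannot be told apart without use of the strand. SLC19A1, the reduced folate carrier, stood at 556, 394 and 438 normalized counts in vehicle, 627, 564 and 628 with VPA and 691, 599 and 599 with VPA+Rapamycin. Vehicle lay below both treated conditions, but the log2 fold changes of 0.38 ± 0.14 and 0.43 ± 0.15 did not pass (edgeR adjusted p = 0.0659 and 0.0654), nor did 0.06 ± 0.10 for added Rapamycin. FPGS, which adds the glutamate tail, lay between 620 and 839 normalized counts and was not called.

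The glycine cleavage system breaks glycine down in mitochondria to load a carbon unit on folate. With VPA 2 of its 4 tested members were higher, beside 16.4% of all tested genes. For added Rapamycin 0 of 3 were called, beside 6.74% of all tested genes. There GLDC and DLD had an unadjusted p under 0.05 and DESeq2 called 0. GLDC (chr9:6532464-6645783), the decarboxylase of the system, stood at 1824, 2002 and 1936 normalized counts in vehicle, 2442, 2320 and 2522 with VPA and 2142, 2182 and 2057 with VPA+Rapamycin. The conditions did not overlap, and GLDC rose by 0.33 ± 0.10 with VPA (edgeR adjusted p = 0.0243), with -0.19 ± 0.07 for added Rapamycin (adjusted p = 0.128) and 0.14 ± 0.10 against vehicle (adjusted p = 0.364). DLD (chr7:107890970-107931730), a dehydrogenase shared with other mitochondrial complexes, stood at 1292, 1437 and 1662 in vehicle, 1985, 1910 and 1742 with VPA and 1655, 1525 and 1734 with VPA+Rapamycin. It rose by 0.35 ± 0.12 with VPA (adjusted p = 0.0428), a call lost when any library other than vehicle replicate 3 was left out, and gave -0.19 ± 0.08 for added Rapamycin. GCSH, the carrier protein, lay between 322 and 556 normalized counts with a log2 fold change of 0.36 ± 0.15 that did not pass (adjusted p = 0.0904). AMT was at 2.95 to 16.6 normalized counts, with 63.1% of its exon bases shared with a read-through gene.

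In the methionine cycle AHCY and MAT2A moved in opposite directions with VPA. AHCY (chr20:34280268-34311802), which removes the S-adenosylhomocysteine left by methylation, stood at 3585, 3127 and 2662 normalized counts in vehicle, 5781, 5754 and 5521 with VPA and 4271, 4538 and 3873 with VPA+Rapamycin. The 3 conditions did not overlap, and the order was vehicle, VPA+Rapamycin, VPA. AHCY rose by 0.85 ± 0.11 with VPA (edgeR adjusted p = 0.000337), fell by 0.42 on the log2 scale with added Rapamycin (SE 0.07, adjusted p = 0.00206) and stayed above vehicle by 0.43 ± 0.12 (adjusted p = 0.0349), the last call being lost without vehicle replicate 2 or any VPA+Rapamycin library. MAT2A (chr2:85539165-85545280), which makes the methyl donor S-adenosylmethionine, stood at 5246, 5846 and 5471 normalized counts in vehicle, 4212, 4105 and 4151 with VPA and 5063, 4433 and 4884 with VPA+Rapamycin. VPA lay lowest with no overlap. MAT2A fell by 0.42 on the log2 scale with VPA (SE 0.09, edgeR adjusted p = 0.00552), called under all 14 alternatives, while 0.21 ± 0.07 for added Rapamycin did not pass (adjusted p = 0.0915), except with DESeq2 and without VPA+Rapamycin replicate 2. VPA+Rapamycin against vehicle gave -0.21 ± 0.10 (adjusted p = 0.167). MTR, the methionine synthase, and MTRR, its reductase, lay at 1379 to 1857 and 592 to 791 normalized counts and were not called. BHMT2 was at 0 in 8 libraries and at 4.91 normalized counts in VPA+Rapamycin replicate 1.

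CBS, which commits homocysteine to cysteine synthesis, varied more between libraries than between conditions. It stood at 867, 375 and 211 normalized counts in vehicle, 970, 503 and 687 with VPA and 698, 616 and 353 with VPA+Rapamycin, and all conditions overlapped. The log2 fold changes were 0.56 ± 0.40, -0.37 ± 0.20 and 0.19 ± 0.41 (edgeR adjusted p = 0.303, 0.315 and 0.78). For VPA against vehicle the log2 fold change ran from 0.21 without vehicle replicate 3 to 1.29 without vehicle replicate 1, where it was called, as it also was without a filter on low counts. CBS has a near-identical annotated copy, CBSL, which took 8.18 to 89.2 normalized counts in vehicle and VPA libraries and 210 in VPA+Rapamycin replicate 1, so the level of CBS is uncertain. CTH, of the following step, lay between 181 and 226 normalized counts and was not called.

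Other genes of the pathway were counted in lists. Beside every list stand the shares of all tested genes. With VPA these were 16.4% higher and 15.7% lower, and with added Rapamycin 3.01% and 3.73%. Of 17 other folate and methionine cycle genes tested, 6 were higher and 3 lower with VPA. The share lower, 17.65%, lay near that of all tested genes. With added Rapamycin 0 of the 17 were higher and 2 lower. BHMT, which remethylates homocysteine with betaine, stood at 2.93, 17.4 and 9.20 normalized counts in vehicle, 79.9, 81.5 and 104 with VPA and 24.6, 38.5 and 63.5 with VPA+Rapamycin. No libraries overlapped between conditions, and BHMT rose by 3.16 ± 0.46 (edgeR adjusted p = 0.00055), fell with added Rapamycin by 1.07 on the log2 scale (adjusted p = 0.0373) and stayed above vehicle by 2.09 ± 0.57. MTAP, a methionine salvage enzyme, fell by 0.42 on the log2 scale with VPA.

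Of the 10 other purine enzymes, 5 were higher with VPA and 0 lower, beside 16.4% and 15.7% of all tested genes. The smallest adjusted p were for PFAS at 0.61 ± 0.13, PRPS1 at 0.47 ± 0.10 and PAICS at 0.40 ± 0.09 on the log2 scale (edgeR adjusted p = 0.00453, 0.00517 and 0.00709). With added Rapamycin edgeR called 0 of the 10, with 5 lower at an unadjusted p under 0.05 and 2 called lower by DESeq2. Of 9 pyrimidine and deoxynucleotide enzymes, 4 were higher with VPA, with the smallest adjusted p for TK1 at 0.66 and DUT at 0.48 on the log2 scale, and 1, RRM1, was lower with added Rapamycin. Of the 10 carriers of serine and glycine, 3 were higher and 3 lower with VPA. SFXN3, a mitochondrial carrier of the sideroflexin family, went from 17.6, 20.7 and 31.7 normalized counts in vehicle to 213, 240 and 272 with VPA and 124, 233 and 201 with VPA+Rapamycin, a rise of 3.36 ± 0.26 with VPA (edgeR adjusted p = 1.5e-05). SFXN1 of the same family, with a mean of 3167 normalized counts in vehicle, was called lower with VPA at -0.39 ± 0.12 (edgeR adjusted p = 0.0299). It was also lower with VPA+Rapamycin than in vehicle, at -0.45 ± 0.12 (edgeR adjusted p = 0.0268). The plasma membrane carriers SLC1A4 and SLC38A2 gave 0.86 ± 0.17 and -0.87 ± 0.18 with VPA. With added Rapamycin edgeR and DESeq2 called 0 of the 10 carriers, and 1 was higher and 1 lower at an unadjusted p under 0.05. Of 5 glutathione and cysteine enzymes 0 were called for VPA by edgeR or DESeq2, with 1 at an unadjusted p under 0.05, and GSR was lower with added Rapamycin, by -0.33.

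ATF4 itself, the transcription factor of the amino acid response, stood at 4414, 3683 and 4096 normalized counts in vehicle, 3526, 3230 and 3542 with VPA and 2384, 2749 and 2509 with VPA+Rapamycin. Its difference between VPA and vehicle, -0.25 ± 0.10, did not pass (edgeR adjusted p = 0.0785), and it fell with added Rapamycin by 0.43 on the log2 scale (SE 0.08, adjusted p = 0.00231). Of the 11 genes of the ATF4 list, 4 were higher and 1 lower with VPA, and 4 were lower and 0 higher with added Rapamycin. The shares of all tested genes were 16.4% and 15.7% with VPA, and 3.73% and 3.01% with added Rapamycin. TRIB3, a pseudokinase gene of that response, rose by 1.49 ± 0.16 with VPA and fell by 0.67 on the log2 scale with added Rapamycin, CHAC1 rose by 1.48 ± 0.34 with VPA, and SLC7A11, the cystine carrier, fell with added Rapamycin by 1.34. The gene called lower with VPA was DDIT3, at -1.08 ± 0.35 (edgeR adjusted p = 0.0359), which shares 39.6% of its exon bases with other genes. Estimates with VPA were above 0 for 7 genes of the list and below 0 for 4, so the list did not move in 1 direction. For VPA+Rapamycin against vehicle, 2 genes of the ATF4 list were higher and 2 lower, the latter being ATF4 at -0.68 and DDIT3 at -1.32. Beside these, 3 and 1 of the other folate and methionine cycle genes, 1 and 0 of the purine enzymes and 2 and 2 of the carriers were called. In that comparison 9.81% of all tested genes were higher and 9.22% lower. The single fit of all 9 libraries called only 1 gene of all these lists and the marker lists for added Rapamycin, in place of 6 higher and 21 lower.

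**Figure D4:**
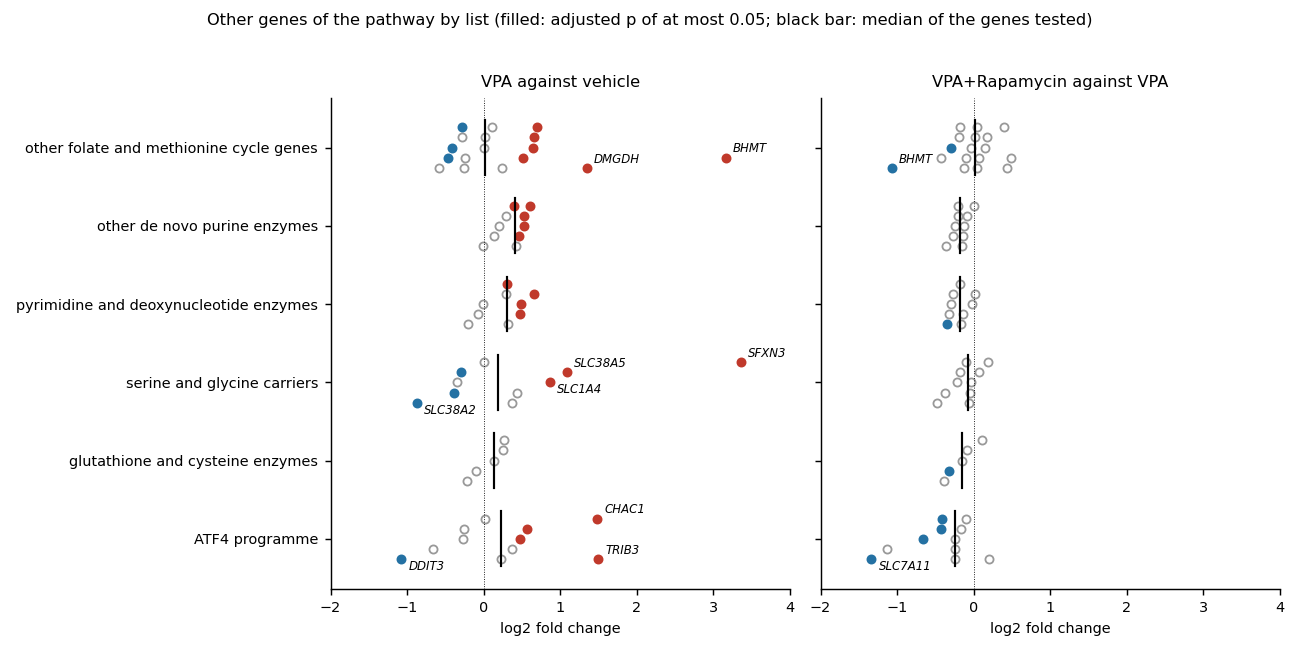
Log2 fold change (horizontal axis) of each tested gene of 6 lists, for VPA against vehicle on the left and VPA+Rapamycin against VPA on the right. Filled points passed an adjusted p of 0.05 (red higher, blue lower), black bars are list medians, and names are given for called genes that changed most, with BHMT at 3.16 and SFXN3 at 3.36 farthest to the right under VPA.

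Cell type and proliferation markers moved between the same conditions. Calls among them stand beside 16.4% of all tested genes higher and 15.7% lower with VPA, and 3.73% lower with added Rapamycin. The 10 proliferation genes summed to 36397 to 43225 normalized counts in vehicle, 43579 to 46298 with VPA and 36400 to 41695 with VPA+Rapamycin, with 2 higher with VPA (MCM3 and PCNA) and 4 lower with added Rapamycin, with the smallest adjusted p for BUB1 at -0.36. The 8 mesenchymal genes summed to 2479 to 5230, 9531 to 12119 and 4238 to 6320 in the same order. With VPA 2 of 8 were higher (COL1A1 and COL1A2) and with added Rapamycin 6 of 8 were lower, none of the 8 being at 0 in all libraries. The mesenchymal sum rested mostly on COL1A1 and COL1A2, with means of 4463 and 5277 with VPA. The estimates of COL3A1, PDGFRA and PRRX1 were below 0 with VPA, beside 5 above 0. For COL3A1 and PRRX1 vehicle replicate 3 stood apart, at 86.9 and 54.2 normalized counts. Vehicle replicates 1 and 2 were at 7.82 and 12.0 for COL3A1 and at 0 for PRRX1, below every VPA library. PDGFRA stood at 64.5, 29.4 and 67.5 in vehicle and at 45.4, 28.5 and 4.69 with VPA. Of the proliferation genes CCNB1, CDK1 and BUB1 were below 0 with VPA, beside 7 above. The most abundant of them, TOP2A and MKI67, were not called with VPA. Both summed levels were highest with VPA in all libraries, as the levels of SHMT2, PHGDH, MTHFD1 and AHCY were. The part of the markers in the change of these members was not tested. Neuronal markers were lower with VPA in 5 of 7 cases and summed to 21253 to 36035, 18147 to 19534 and 19644 to 20387. Of 6 neural progenitor genes 1 was higher and 1 lower with VPA (HES5 and VIM). Of 6 tested neural crest genes 1 was higher and 3 lower, with SOX10, which marks neural crest, at 235 to 339 in vehicle, 4.93 to 10.2 with VPA and 7.86 to 65.6 with VPA+Rapamycin. DESeq2 called 2 of them lower. TFAP2A, also among the 3, overlapped between vehicle (9.77, 29.4 and 157) and VPA (4.93, 17.3 and 9.38), with vehicle replicate 3 far above the others. Of 3 tested astrocyte genes S100B was higher with VPA, and of the 5 HOX genes 3 were lower.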

How the data were processed

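Messenger RNA of 9 libraries (3 per condition) was sequenced after poly-T selection and random priming. Reads were aligned with HISAT2 2.0.5 and counted with featureCounts 1.5.0-p3, per the submitters' processing notes, and use of the strand is not given in the sources used here. The authors deposited 1 table per pair of conditions, with raw counts per gene on GRCh38, and left out genes with fewer than 2 counts. The deposited positions equal GENCODE v29 for 31522 of 31589 genes. Deposited normalized counts, FPKM, fold changes and p-values were not used.

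Each pair was compared in its own table with edgeR 4.0.16 in R 4.3.3 (TMM, filterByExpr, quasi-likelihood F test, Benjamini-Hochberg adjustment over all genes tested, adjusted p of at most 0.05, no replicate block). The procedure was tested on simulated data. Normalized counts are counts scaled with TMM factors over 9 libraries, and values per kb use the deposited gene length. SE was derived from each estimate with its F value, and ± after a log2 fold change is that SE. The floor of 3 counts covers counting error only. The alternatives were DESeq2 1.42.0, its size factors in edgeR, upper-quartile normalization, other filters, protein-coding genes only, a single fit of all 9 libraries, the replicate number as a block, a minimum fold change and leaving out each library.

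Members called at least once were named with full values, together with PHGDH, SHMT2, MTHFD2, MTHFD1, TYMS, SLC19A1, GLDC, CBS, MAT2A and GART, the others by range. Up to 3 called genes with the smallest adjusted p in a comparison were named per list, and the defining markers for cell types. SHMT1, GCSH, SFXN1, DDIT3 and the members named for low counts were added after their values were seen. Members and lists were chosen with earlier results of these data known, so their directions are not independent evidence. A gene of the other folate and methionine cycle list is not reported here by name.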

Additional observations from a re-analysis of the deposited data

How the results depend on the processing

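Of the alternatives for single members, 629 kept direction and side of the threshold, 53 lost and 18 gained a call and 14 changed sign, all 14 being differences that were not called. These were MTHFD1L for VPA against vehicle (0.0038 with upper-quartile normalization, and 0.0038, 0.0002 and 0.0665 without VPA replicate 3, VPA replicate 1 and vehicle replicate 1 in a range of -0.1179 to 0.0665), SLC19A1 for added Rapamycin (-0.0165 without VPA+Rapamycin replicate 1, in a range up to 0.0903), CBS for VPA+Rapamycin against vehicle (-0.1678 and -0.0025 without vehicle replicate 3 and VPA+Rapamycin replicate 1, in a range up to 0.9159) and TYMS for VPA+Rapamycin against vehicle (0.0005 with at least 10 counts in every library, 0.003 without a filter, 0.0102 with the replicate block, 0.0275 with upper-quartile normalization, and 0.0248, 0.1144 and 0.1467 without single libraries in a range from -0.1619). A minimum log2 fold change of 1 in size left 2 members higher and 0 lower with VPA, 0 with added Rapamycin, and 0 for VPA+Rapamycin against vehicle. Leaving out 1 library gave 6 to 15 members for VPA against vehicle (5 to 14 higher, 1 lower), 6 to 7 for added Rapamycin (6 to 7 lower, 0 to 1 higher) and 1 to 9 for VPA+Rapamycin against vehicle (1 to 8 higher, 0 to 1 lower). The single fit of all 9 libraries left 0 members lower with added Rapamycin in place of 7, and among the other listed genes 0 higher and 1 lower in place of 6 and 21. DESeq2 gave 1 member higher in that comparison. Over the other listed genes, leaving out 1 library gave 18 to 32 higher and 9 to 21 lower with VPA, 2 to 7 and 11 to 22 with added Rapamycin, and 3 to 14 and 5 to 22 for VPA+Rapamycin against vehicle; those counts were added after seeing the data. The cause of these shifts was not tested.

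Replicate numbers, and the prefixes that go with them in the labels, are shared by all conditions, and the study describes 3 clones, but nothing ties a number to a clone. Deviations of samples with the same number correlated between -0.0607 and 0.171, all above 0 only for VPA+Rapamycin against vehicle, so pairing was not shown and was not used. With the replicate block, 10, 7 and 6 members were called in the 3 comparisons in place of 11, 7 and 5, with DLD, GLDC and PSPH lost and CBS (0.7274) and SHMT1 gained for VPA, and SLC19A1 gained for VPA+Rapamycin against vehicle.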
